A study of Mus musculus with 3 samples.

Results

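The cells described here are 331 tenomodulin- and asporin-positive cells, called Tnmd+ Aspn+ cells below, from molars of Cxcl12-GFP mice at postnatal day 6. They were chosen by transcript counts. Among barcodes with at least 500 detected genes and at most 15% mitochondrial unique molecular identifiers (UMIs), a cell had at least 1 Tnmd and at least 2 Aspn UMIs, under 2 Mmp13 and under 2 Moxd1 UMIs, and no UMI of Ptprc (a blood cell gene), Pecam1 (endothelium) or Epcam (epithelium). They made up 331 of the 7517 barcodes kept in that library (4.40%, exact binomial 95% interval 3.95 to 4.89) and stood among 14305 kept barcodes in all 3 libraries. Every interval given here covers counting error only.

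The study sequenced single cells dissociated from the pulp and periodontium of mouse mandibular molars, after sorting for fluorescent reporters, in droplet 3′ libraries. Each group was 1 library, so no difference below has a replicate check, no p-value is given, and the labels do not give the number of animals behind a library. In the Cxcl12-GFP P6 library, cells sorted for GFP came from Cxcl12-GFP/+ animals, in which GFP marks cells that transcribe the chemokine gene Cxcl12. The Col1a1-GFP_Cxcl12-creER P25 library came from cells with either or both reporters, at postnatal day 25, in mice that carried Col1a1-GFP, Cxcl12-creER and R26R(tdTomato/+). The Cxcl12-creER P6 library held tdTomato-positive cells of postnatal day 6 mice with Cxcl12-creER and R26R(tdTomato/+), whose tdTomato depends on a tamoxifen-inducible recombinase driven by Cxcl12; the labels give no time of tamoxifen. The Tnmd+ Aspn+ cells held 3550843 UMIs, with a median of 10070 per cell (2507 to 28426), against a median of 8216 in the 6718 other mesenchymal barcodes of the same library, that is all other kept barcodes without Ptprc, Pecam1 or Epcam. No barcode of a Tnmd+ Aspn+ cell was shared with another library, although 1 other barcode sequence occurred in both the Cxcl12-GFP P6 and the P25 library.

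The periodontal ligament is the sheet of aligned collagen fibres that holds the tooth root to the bone socket, and it forms from the dental follicle around the developing root. Tenomodulin, encoded by Tnmd, is a transmembrane glycoprotein of tendon and ligament fibroblasts. Asporin, encoded by Aspn, is a small leucine-rich proteoglycan of the ligament matrix that binds collagen and is known to restrain its mineralisation. Mkx encodes a homeobox transcription factor of tendon, Postn encodes periostin, a matrix protein that aids collagen crosslinking in the ligament, and Cxcl5 encodes a chemokine that attracts neutrophils.

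Tnmd lies on chromosome X (133850980 to 133865577, plus strand, GRCm38, from the GENCODE annotation) and Aspn on chromosome 13 (49544443 to 49567565, plus strand). The 250 bases before the Tnmd start in RefSeq (GRCm38.p6, chrX:133850758-133851007, plus strand) are shown because the rule and the tiers below are built on this gene; none of the 3 motifs searched here and named further on was found in these letters, so none is in capitals.
Tnmd: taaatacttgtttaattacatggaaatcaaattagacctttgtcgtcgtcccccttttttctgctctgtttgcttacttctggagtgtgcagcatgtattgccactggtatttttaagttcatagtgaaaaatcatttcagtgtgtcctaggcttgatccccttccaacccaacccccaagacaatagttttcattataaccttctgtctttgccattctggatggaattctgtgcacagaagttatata

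A part of the cells lay at the Tnmd or the Aspn limit of the rule, and these counts describe the selection itself. The cells had a median of 4 Tnmd UMIs (1 to 36) and of 10 Aspn UMIs (2 to 91); 97 cells had exactly 1 Tnmd UMI, 160 had at least 5, and 54 had exactly 2 Aspn UMIs. Of 937 marker-negative barcodes with enough Tnmd and Aspn, 326 were left out for Mmp13 and 297 for Moxd1. Each of these counts includes the 17 left out for both. Just inside the Tnmd limit, the 97 cells with 1 Tnmd UMI had 668 CPM (counts summed over the cells, scaled to 1e6 UMIs) of Aspn, 541 of Postn and 432 of Bmp2. Just outside it, 705 barcodes with no Tnmd UMI had 551 CPM of Aspn, 409 of Postn and 547 of Bmp2. At the Moxd1 limit, 85 cells with 1 Moxd1 UMI had 765 CPM of Tnmd and 1292 of Acta2, against 823 and 1721 CPM in 63 barcodes with 2. At the Mmp13 limit, 60 cells with 1 Mmp13 UMI had 519 CPM of Tnmd, against 352 CPM in 39 barcodes with 2. At the Aspn limit, 54 cells with 2 Aspn UMIs had 285 CPM of Tnmd, against 254 CPM in 174 barcodes with 1.

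The other given ligament markers were measured in the Tnmd+ Aspn+ cells as a description. They came with the label, with earlier results of these data known, so they cannot check it. Postn was found in 323 of the 331 cells (median 10 UMIs, 0 to 58) and Mkx in 195 (median 1, 0 to 7), whereas Cxcl5 was found in 75 cells (0 to 33 UMIs). Deeper barcodes hold more genes, so shares were also taken after thinning each barcode to 3000 UMIs, which left out 1 of the 331 cells. At that depth Postn had a UMI in 84.8% of the Tnmd+ Aspn+ cells and 56.2% of the other mesenchymal barcodes. Cxcl5 had a UMI in 15.8% against 1.98%. Mkx had a UMI in 19.1% (95% interval 15 to 23.8) of the Tnmd+ Aspn+ cells and 15.8% (95% interval 14.9 to 16.7) of the others in 1 random draw, and in a second draw in 23% (95% interval 18.6 to 28) of the Tnmd+ Aspn+ cells, so the overlap of the intervals depended on the draw; without thinning the shares were 58.9% and 34.9%. Scx, which encodes the tendon transcription factor scleraxis, had 2 UMIs in all 331 cells, so the label has no support from that gene; Scx (chromosome 15, 76457452 to 76459458, plus strand) lies inside Bop1 on the other strand.

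The 89 endothelial barcodes of the same library (at least 2 Pecam1 and 1 Cdh5 UMIs, median 7924 UMIs), which should lack ligament genes, gave the level of free RNA. Before thinning, Tnmd had a UMI in 8.99% of them, Aspn in 23.6% and Postn in 41.6%. At 3000 UMIs, Tnmd had a UMI in 67.3% of the Tnmd+ Aspn+ cells and 2.3% of the endothelial barcodes, and Mkx in 19.1% and 1.15%. In a second random draw at that depth, used below for the comparison with P25, Tnmd had a UMI in 64.2% of the Tnmd+ Aspn+ cells and 4.6% of the endothelial barcodes, and Mkx in 23% and 4.6%. Cxcl5 was found in none of the 87 endothelial barcodes that could be thinned, which allows a share of up to 3.45% when 3 counts over the total are taken as the limit of a count of 0, as in every such limit here. Cxcl12 is an exception: 36.7% of the Tnmd+ Aspn+ cells had a UMI, 49.9% of the other mesenchymal barcodes and 50.6% of the endothelial barcodes, cells that also make this chemokine. Because 97 cells were admitted on 1 Tnmd UMI, the part of free RNA in the membership was not tested.

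**Figure D1:**
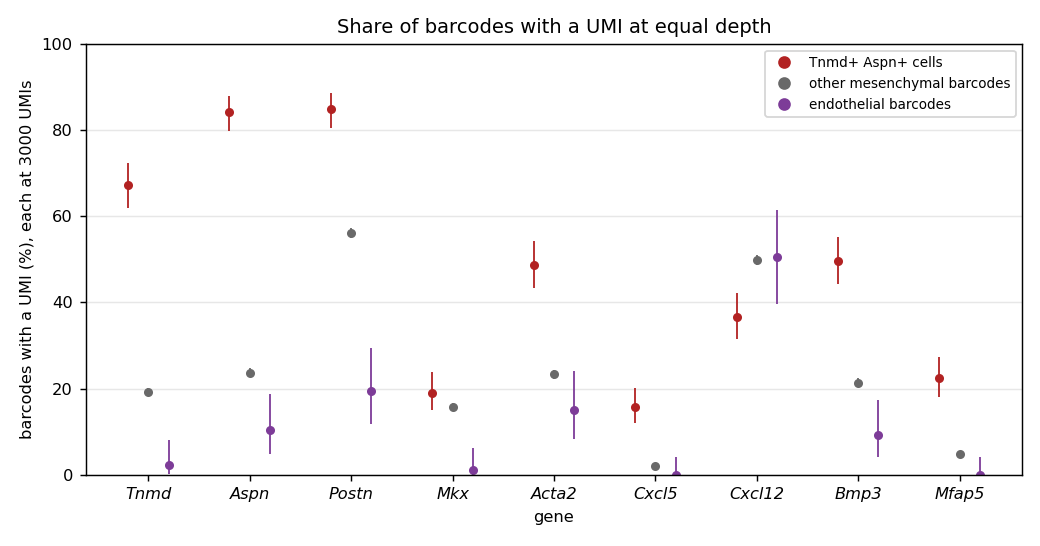
Share of barcodes with at least 1 UMI of each gene after thinning every barcode to 3000 UMIs, in Tnmd+ Aspn+ cells, other mesenchymal barcodes and endothelial barcodes; bars are exact binomial 95% intervals for counting error. Tnmd and Aspn belong to the rule, and Acta2 stood at 48.8% of the Tnmd+ Aspn+ cells against 23.3% of the other mesenchymal barcodes.

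Against the other mesenchymal barcodes, the Tnmd+ Aspn+ cells had more transcript of Cxcl5, C1qtnf3, Mfap5 and Lpl and less of Cldn10, Trf and Msx2. The rule used transcripts of these same cells, so this comparison is a description. In the low Tnmd tier, described further on, Cxcl5, C1qtnf3 and Mfap5 lay below the other mesenchymal barcodes and Lpl a little above them. Among 6565 genes with at least 20 CPM on the higher side, 98 (1.49%) were at least 2-fold higher and 131 (2.0%) at least 2-fold lower in the Tnmd+ Aspn+ cells (3.49% either way), on log2(CPM + 1), and the median of all genes was -0.03. Cxcl5 had the largest difference among named genes outside the rule, with 123 against 13 CPM, or 9.42-fold (95% interval 8.36 to 10.6). C1qtnf3, which encodes a secreted protein of the C1q and tumour necrosis factor family, had 69 against 13.9 CPM. Mfap5, which encodes a microfibril glycoprotein, had 149 against 33.8 CPM, or 4.41-fold (95% interval 4 to 4.85). Lpl, encoding lipoprotein lipase, stood at 237 against 61.3 CPM, and Htra1, encoding a secreted serine protease, at 204 against 55.1 CPM. Nupr1, encoding a stress-induced nuclear protein, had 349 against 109 CPM.

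Further genes among the 15 highest were Spon2, a matrix protein gene, at 96.6 against 30.1 CPM; Lrrc15, a fibroblast membrane protein gene, at 63.9 against 18.4 CPM; Chodl, a membrane lectin gene, at 61.7 against 20.1 CPM; and Htra3, another secreted serine protease gene, at 137 against 45.9 CPM. S100b, a calcium-binding protein gene, had 212 against 72.7 CPM. Ly6a, which encodes the surface protein Sca-1, had 93.8 against 20.7 CPM, although 21.4% of the Tnmd+ Aspn+ cells held all of it and 76.4% of the endothelial barcodes had a UMI. Rgs5, a gene of mural cells, had 91.2 against 26.1 CPM, but 25 cells held its UMIs and 5 of them held 84.9%.

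On the lower side, Msx2, a homeobox gene of tooth mesenchyme, had 111 against 353 CPM, so it was 3.17-fold (95% interval 2.87 to 3.51) lower in the Tnmd+ Aspn+ cells. Trf, encoding transferrin, had 105 against 425 CPM, and Cldn10, encoding a claudin, had 33 against 142 CPM. Lect1, now called Cnmd, encodes chondromodulin, the protein most akin to tenomodulin, and it had 29.3 against 93 CPM, the opposite side from Tnmd. Its UMIs lay in 39 of the 331 cells, and 5 of them held 46.2%. Over the Moxd1-positive and Mmp13-positive barcodes, described below, Lect1 was higher, with log2 ratios of 0.74 and 0.85. Hey1, a target of Notch signalling, stood at 49.6 against 142 CPM, and the remaining genes of the 15 lowest, among them Scin, Lypd1, Clu, Stc2, Gfra2 and Slc20a2, were 2.81-fold to 3.46-fold lower apart from Amelx. Amelx, which encodes the enamel protein amelogenin, had 36.3 against 291 CPM, but 3 of the 6718 other barcodes held 88.5% of its UMIs there, and the order turned round (log2 ratio 0.29) when barcodes were limited to the middle range of depth.

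**Figure D2:**
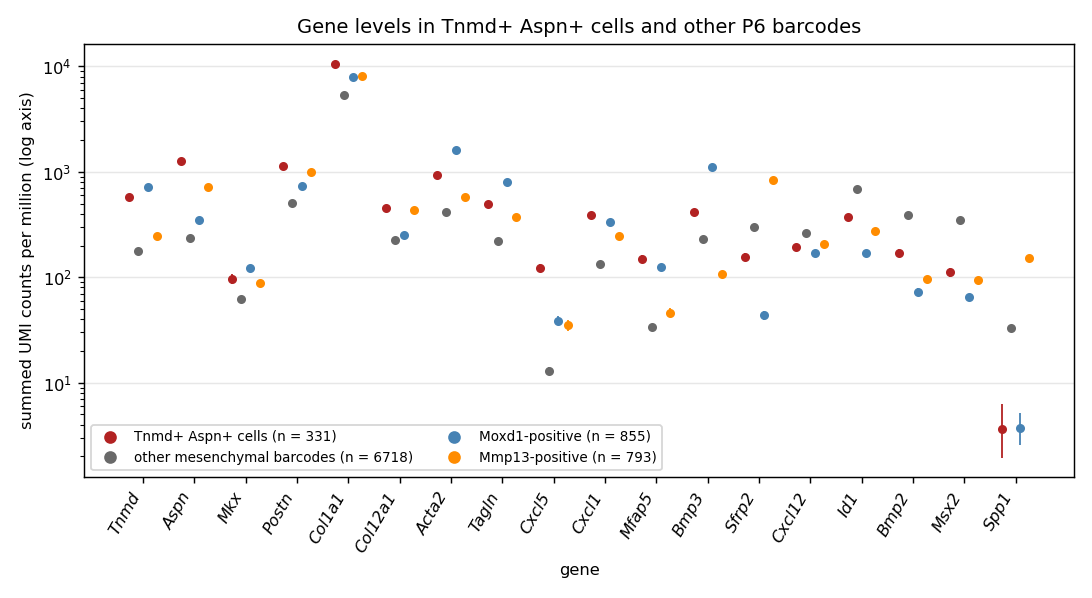
Summed CPM (log axis) of chosen genes in Tnmd+ Aspn+ cells, other mesenchymal barcodes, Moxd1-positive and Mmp13-positive barcodes of the Cxcl12-GFP P6 library; bars are exact Poisson 95% intervals for counting error. Cxcl5 was at 123 CPM in the Tnmd+ Aspn+ cells and at 13, 38.8 and 34.9 CPM in the 3 other sets, while Bmp3 and Acta2 were highest in the Moxd1-positive barcodes.

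Fibre-forming collagens were higher in the Tnmd+ Aspn+ cells and the cartilage-type collagens lower. Of 29 collagen genes, 22 passed the level floor, 3 were at least 2-fold higher and 5 at least 2-fold lower, with a median log2 ratio of 0.53. Col1a1 had 10495 against 5406 CPM and Col1a2 5389 against 2352 CPM, the 2 chains of type I collagen, which builds the ligament's fibres. Col12a1, whose product sits on type I fibrils, had 452 against 227 CPM, and Col8a1, a short-chain collagen gene, had 197 against 77.4 CPM. Col3a1, the type III fibre gene, had 6354 against 4449 CPM, and like Col1a1 and Col12a1 it was short of 2-fold. The 3 chains of type IX collagen, known from cartilage, went the other way: Col9a1 had 68.7 against 158 CPM, Col9a2 358 against 838 CPM and Col9a3 102 against 279.8 CPM.

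Among genes of collagen processing, 23 of 28 passed the floor, 3 were at least 2-fold higher and 0 at least 2-fold lower, with a median of 0.11. Lox, encoding lysyl oxidase, had 157 against 60.5 CPM, P4ha3, a prolyl hydroxylase gene, had 95.8 against 36.7 CPM, and Adamts2, encoding an enzyme that trims procollagen, had 239 against 106 CPM. In the list of elastic and oxytalan fibre genes, 16 of 18 passed the floor and 2 were at least 2-fold higher (median 0.24): Mfap5, above, and Ltbp4, a latent TGF-beta binding protein gene, at 126 against 62.1 CPM. Fbn2, the fibrillin gene of early microfibrils, was at 130.1 against 239.6 CPM and Fbn1 at 148 against 113 CPM.

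Matricellular genes, whose products signal from the matrix rather than build it, had a median log2 ratio of 0.80, the highest among the lists that are not cell type markers and hold at least 5 genes above the floor. Of 21 genes, 15 passed the floor, 7 were at least 2-fold higher and 1 at least 2-fold lower. Postn, one of the given markers, had 1136 against 510.2 CPM, or 2.23-fold (95% interval 2.15 to 2.3). Thbs1, Thbs2 and Thbs4 encode thrombospondins and had 141 against 65.6 CPM, 156 against 71.7 CPM and 194 against 86.8 CPM. Wisp1, listed as Ccn4, had 108 against 51.3 CPM, and Ctgf, listed as Ccn2, had 164 against 81.4 CPM; both encode CCN family proteins. Tnc, encoding tenascin-C, was the gene on the lower side, at 202 against 412 CPM. Of the small leucine-rich proteoglycans other than Aspn, 7 of 12 passed the floor and none was 2-fold higher: Dcn (decorin) had 1147 against 753 CPM and Omd (osteomodulin) 1869 against 1105 CPM, whereas Fmod (fibromodulin) was lower at 171 against 420.2 CPM.

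Genes of the contractile apparatus were higher than in the other mesenchymal barcodes. All 9 of the 12 listed genes that passed the floor lay above the other mesenchymal barcodes and 4 of them by at least 2-fold, with a median of 0.60. Among all genes 1.49% were at least 2-fold higher and the median was -0.03. Acta2, encoding smooth muscle actin, had 938 against 411 CPM, or 2.28-fold (95% interval 2.2 to 2.37), and was found in 214 of the 331 cells (median 2 UMIs, 0 to 118). Tagln, encoding transgelin, had 495 against 223 CPM. Actg2, encoding enteric smooth muscle actin, had 40.8 against 8.88 CPM, with 53 cells holding its UMIs. Genes that define mural cells went both ways: besides Rgs5, Kcnj8 had 78.9 against 129 CPM, Abcc9 18.3 against 26.1 CPM, Myh11 10.7 against 5.06 CPM and Cspg4 3.66 against 5.48 CPM, and the list summed to 217 against 205 CPM, with Rgs5 in 25 cells as above.

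Because Acta2 and Cxcl1 were among the genes that lay higher in these cells, the 250 bases before their starts are shown. Exact matches to 3 motifs were searched on both strands: the E-box CANNTG, the CArG box CCWWWWWWGG and the NF-kappaB motif GGGRNWYYCC. In these, N is any base, W is A or T, R is A or G and Y is C or T. Capitals mark E-boxes in both sequences and, in Cxcl1, also 2 overlapping NF-kappaB matches. An E-box was present in 66.2% of all 32851 RefSeq start windows of this length, an NF-kappaB match in 3.9% and a CArG box in 1.47%. A match is a description of the letters and no site was tested.
Acta2 (chr19:34255374-34255623, minus strand, GRCm38.p6): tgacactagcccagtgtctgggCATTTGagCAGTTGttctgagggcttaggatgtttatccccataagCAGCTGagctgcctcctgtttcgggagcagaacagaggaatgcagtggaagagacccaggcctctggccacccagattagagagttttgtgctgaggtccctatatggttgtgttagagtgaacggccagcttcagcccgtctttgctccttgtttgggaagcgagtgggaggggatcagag
Cxcl1 (chr5:90890995-90891244, plus strand, GRCm38.p6): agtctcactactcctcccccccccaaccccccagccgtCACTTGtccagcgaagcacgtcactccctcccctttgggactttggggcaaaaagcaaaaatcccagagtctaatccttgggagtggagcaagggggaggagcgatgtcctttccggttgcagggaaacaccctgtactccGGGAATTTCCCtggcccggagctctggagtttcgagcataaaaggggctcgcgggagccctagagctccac
The Acta2 window held 3 E-boxes and no exact match to the CArG pattern in these letters. Stretches that differ from the pattern by a base, such as ccctatatgg and ccttgtttgg in this window, were not counted. The Cxcl1 window held 1 E-box, and its NF-kappaB matches lay 71 to 61 bases before the start.

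Chemokine genes differed in direction. Only 5 of 23 listed chemokine and cytokine genes passed the floor, 2 of them at least 2-fold higher and none 2-fold lower. Cxcl5 and Cxcl1 both encode ligands of the receptor Cxcr2, and Cxcl1 had 389.8 against 132 CPM, or 2.95-fold (95% interval 2.78 to 3.12), in 170 of the 331 cells. At 3000 UMIs, 32.7% of the Tnmd+ Aspn+ cells had a Cxcl1 UMI. The other mesenchymal barcodes stood at 15.1% and the endothelial barcodes at 28.7%. The part of free RNA in these shares was not tested. Cxcl12, the gene whose reporter was sorted, was lower at 192 against 261 CPM, or 1.36-fold (95% interval 1.26 to 1.47) lower, and the GFP transcript stood at 538 against 748 CPM. No Cxcl12 UMI was found in 91 of the 331 cells and at least 2 were found in 161.

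Most BMP signalling genes above the floor were lower in the Tnmd+ Aspn+ cells than in the other mesenchymal barcodes. Of 22 BMP genes, 15 passed the floor, 0 were 2-fold higher and 3 2-fold lower, with a median of -0.57. The ligand gene Bmp2 had 170.1 against 392 CPM, or 2.31-fold (95% interval 2.13 to 2.5) lower, and the ligand gene Bmp3, an antagonist of other BMPs, was higher at 418 against 231 CPM. The direct targets Id1 and Id4 had 371 against 689 CPM and 74.3 against 177 CPM, the inhibitory Smad6 35.5 against 76.1 CPM and the decoy receptor Bambi 248 against 477 CPM. All 5 Notch genes above the floor were lower (median -0.97): besides Hey1, Hes1 had 248 against 486 CPM and the receptor gene Notch2 157 against 225 CPM. In this comparison neither list had a gene 2-fold higher, beside 1.49% of all genes. The 2.0% of all genes 2-fold lower compares with 3 of 15 and 2 of 5. Over the Moxd1-positive and Mmp13-positive barcodes, described below, the BMP list went the other way. Its medians were 0.40 and 0.26, with 12 and 11 of 15 genes higher. The Notch medians there were -0.13 and -0.23.

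In the Wnt list, 14 of 24 genes passed the floor, with 0 at least 2-fold higher, 2 at least 2-fold lower and a median of 0.34. Wif1, encoding a secreted Wnt inhibitor, had 1379 against 928 CPM, and Sfrp1, another inhibitor gene, 446 against 312 CPM, while the R-spondin genes Rspo2 and Rspo4 had 11.3 against 30.6 CPM and 61.1 against 133 CPM. In the insulin-like growth factor list, 9 of 10 genes above the floor were higher, none by 2-fold (median 0.33): the ligand Igf1 had 950.2 against 524 CPM and the binding protein gene Igfbp5 2832 against 1659.5 CPM. No TGF-beta gene of 14 above the floor was 2-fold apart (median 0.11). The FGF list had 5 genes above the floor and none 2-fold apart; the receptor gene Fgfr1 had 295 against 482 CPM. Pgf, a placental growth factor gene, stood at 169 against 71.8 CPM, and all 7 angiogenic genes above the floor lay higher, 2 by at least 2-fold.

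Tendon and ligament transcription factors differed little in size. Of 14 genes, 12 passed the floor, 9 were higher than in the other mesenchymal barcodes, none reached 2-fold and the median was 0.47. Their direction was the opposite over the Moxd1-positive barcodes, as given below. Mkx (chromosome 18, 6934518 to 7004780, minus strand) had 95.8 against 62.3 CPM, or 1.54-fold (95% interval 1.37 to 1.72). Foxf1, a forkhead gene, had 486 against 410.4 CPM, whereas Twist2 was lower at 209.8 against 289.9 CPM. Of the bone and cementum genes, Runx2, the master gene of bone formation, had 133 against 70.9 CPM and Sp7, its partner in osteoblasts, 92.9 against 128 CPM. Bglap, encoding osteocalcin, had 32.1 against 13.9 CPM, but 13 cells held it and 5 of those held 93% of its UMIs, and Mgp, encoding matrix Gla protein, had 5 cells with 88.4%.

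Summed markers of other cell types lay on both sides of the other mesenchymal barcodes. The 7 endothelial markers outside the rule summed to 17.2 CPM in the Tnmd+ Aspn+ cells and 22.5 CPM in the other mesenchymal barcodes, with none above the floor, and the skeletal muscle list to 6.2 and 3.96 CPM. The 10 blood markers summed to 47.3 and 121 CPM, and the 10 epithelial markers to 153 and 535 CPM, of which Amelx has the spread given above. Cartilage markers summed to 152 and 328 CPM, with Sox9 at 68.4 against 178 CPM and Col2a1 at 8.73 against 38.7 CPM, and osteoblast markers to 165 and 189.5 CPM. The odontoblast markers summed to 72.7 and 64.5 CPM. The glial list was higher, at 217 and 87.2 CPM, and rested on S100b alone above the floor, found in 170 of the 331 cells. Cells with at least 2 UMIs over 6 division genes made up 59 of the 331 (17.8%), against 705 of 6718 (10.5%), and none of the 15 cell cycle genes reached 2-fold (median 0.43); the deeper barcodes count higher here, and the part of depth in this share was not tested.

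**Figure D3:**
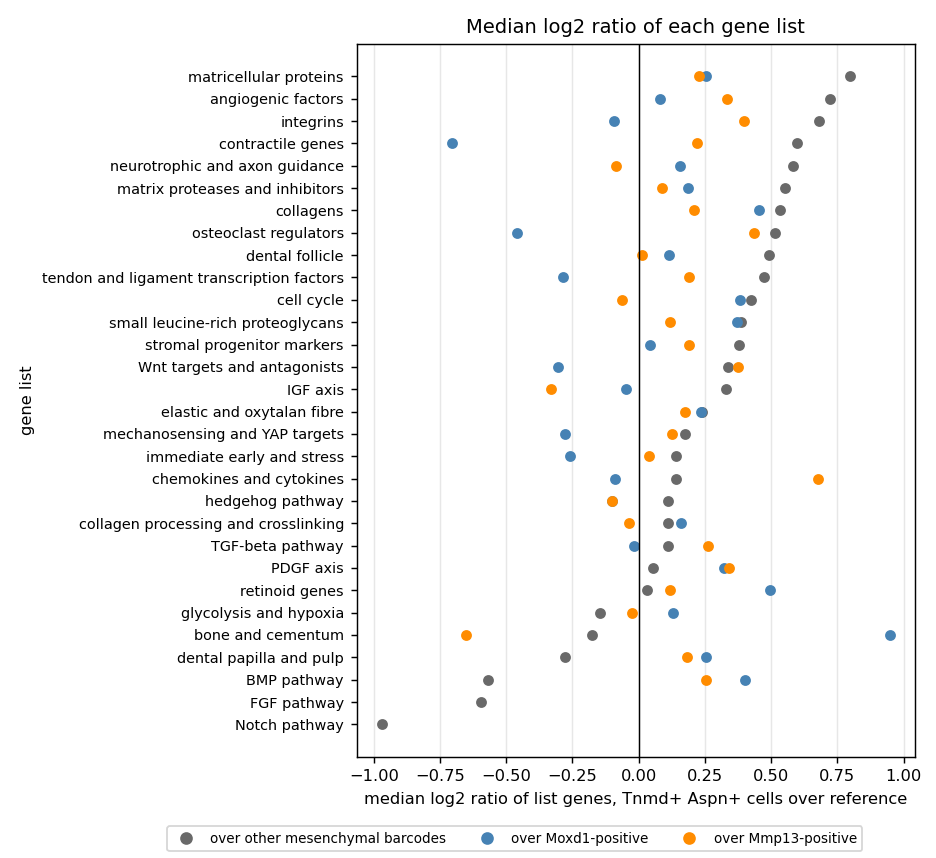
Median log2 ratio (horizontal axis) of each gene list with at least 5 genes above the floor, for Tnmd+ Aspn+ cells over the other mesenchymal, the Moxd1-positive and the Mmp13-positive barcodes; each point is 1 list in 1 comparison. Over the other mesenchymal barcodes the matricellular list stood at 0.80 and the BMP list at -0.57; over the Moxd1-positive barcodes the contractile list stood at -0.70.

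Set against the 855 Moxd1-positive barcodes (at least 2 Moxd1 and under 2 Mmp13 UMIs, median 9943 UMIs), the Tnmd+ Aspn+ cells were lower in most contractile genes, Bmp3 and Cxcl14 and higher in Cxcl5. Of 6492 genes, 78 (1.2%) were at least 2-fold higher and 74 (1.14%) at least 2-fold lower (2.34% either way). Tnmd itself was lower, at 574 against 715 CPM, and Mkx also, at 95.8 against 124 CPM. Neither of these markers was therefore highest in the Tnmd+ Aspn+ cells. Of 12 tendon and ligament transcription factors above the floor, 11 were lower here, none by 2-fold (median -0.29). The rule chose on Moxd1 and on Aspn, so the differences in these genes, Aspn at 1262 against 351 CPM among them, were fixed by the choice. It also required a Tnmd UMI of the Tnmd+ Aspn+ cells alone, so the Tnmd levels were not compared free of the choice. Of the 855 barcodes, 280 would have passed its Tnmd and Aspn limits. Cxcl5 had 123 against 38.8 CPM, or 3.15-fold (95% interval 2.74 to 3.64). Thbs4, a thrombospondin gene of tendon, had 194 against 54.7 CPM, Sfrp2, a secreted Wnt modulator gene, 156 against 43.8 CPM, and Crabp1, a retinoic acid binding protein gene, 251 against 76.6 CPM. Agt, encoding angiotensinogen, had 109 against 27.1 CPM. Of 10 bone and cementum genes above the floor, 5 were 2-fold higher and 1, Ibsp, was 2-fold lower (median 0.95). Among the 5, Dlx5, a homeobox gene of bone cells, had 171 against 81.8 CPM, while in Bglap and Mgp 5 cells held 93% and 88.4% of the UMIs. The median of the osteoblast markers, 2.17, turned to -0.79 when at least 2 Tnmd UMIs were required. Rgs5 had 91.2 against 4.24 CPM, in 25 cells as before.

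On the lower side of that comparison, Cxcl14, a chemokine gene, had 277 against 1092 CPM, or 3.94-fold (95% interval 3.69 to 4.21) lower. Notum and Dkk2, genes of secreted Wnt inhibitors, had 8.73 against 81.9 CPM and 43.4 against 159 CPM. Ibsp, encoding bone sialoprotein, had 14.1 against 100.5 CPM, and the receptor gene Aplnr 6.76 against 53.4 CPM. Gatm, an enzyme gene of creatine synthesis, had 5.07 against 55.1 CPM. Of 10 contractile genes above the floor, 9 were lower, 1 of them by at least 2-fold (median -0.70), with Acta2 at 938 against 1620.2 CPM. Bmp3 had 418 against 1121 CPM and Igfbp5 2832 against 5322 CPM. When the low Tnmd tier, described further on, was left out, 105 genes were 2-fold apart instead of 152.

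Set against the 793 Mmp13-positive barcodes (median 10335 UMIs), which carry the collagenase that the rule excluded, the Tnmd+ Aspn+ cells were higher in Lrrc15, C1qtnf3 and Bmp3 and lower in Spp1, Sfrp2 and other genes of bone and remodelling. Of 6439 genes, 65 (1.01%) were at least 2-fold higher and 45 (0.699%) at least 2-fold lower (1.71% either way). Tnmd had 574 against 245 CPM. The rule required Tnmd and Aspn of the Tnmd+ Aspn+ cells alone, so this difference was in part set by the choice. Of the 793 barcodes, 309 would have passed its Tnmd and Aspn limits. Mkx and Postn, outside the rule, had 95.8 against 88 CPM and 1136 against 997 CPM. Lrrc15 had 63.9 against 6.45 CPM, or 9.91-fold (95% interval 7.4 to 13.5), and C1qtnf3 69 against 9.23 CPM. Col8a1 had 197 against 45.7 CPM and Bmp3 418 against 108 CPM. Cyp1b1, a cytochrome P450 gene, had 65.3 against 14.2 CPM, Chodl 61.7 against 12 CPM, and Rgs5 91.2 against 16.1 CPM in its 25 cells.

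Spp1, encoding osteopontin, had 3.66 against 153 CPM, with 13 UMIs in 12 of the 331 cells. Sfrp2 had 156 against 836 CPM, or 5.35-fold (95% interval 4.91 to 5.84) lower. Mmp9, a gelatinase gene, had 16.9 against 85.4 CPM, and Aldh1a2, which makes retinoic acid, 13.5 against 73.3 CPM. Entpd3, an ectonucleotidase gene, had 10.4 against 53.4 CPM, and Pmch, a neuropeptide precursor gene, 35.5 against 136 CPM, with 5 cells holding 75.4% of its UMIs in the Tnmd+ Aspn+ cells. Of 11 bone and cementum genes above the floor, 1 was 2-fold higher and 4 were 2-fold lower (median -0.65). Amelx and Clu were lower here too, at 36.3 against 689 CPM and 49.8 against 261 CPM, but both turned round (log2 ratios 0.42 and 0.27) when barcodes were limited to the middle range of depth.

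The 331 cells were not alike, and the differences followed their Tnmd level. They were split into 3 tiers by Tnmd CPM, with 111 low, 110 middle and 110 high cells, whose median Tnmd levels were 119, 411 and 1176 CPM and whose median depths were 9228, 10730 and 10028 UMIs; 93 cells of the low tier had 1 Tnmd UMI. Values below follow the order low, middle, high, and the tiers share a library, so they carry no test. Of 6809 genes, 370 (5.43%) were at least 2-fold higher and 459 (6.74%) at least 2-fold lower in the high than in the low tier (12.2% either way). Cxcl5 had 9.92, 103 and 266 CPM, C1qtnf3 9.1, 51.3 and 154 CPM and Mfap5 24.8, 186 and 243 CPM. Acta2 had 284, 1066 and 1507 CPM, Actg2 4.96, 27.7 and 94.4 CPM and Tagln 148, 599.7 and 756 CPM. The given markers were higher in the high than in the low tier too: Postn had 586, 1287 and 1565 CPM and Mkx 56.2, 100.1 and 134 CPM. In the low tier Cxcl5, C1qtnf3, Mfap5, Acta2, Actg2, Tagln and Mkx lay below their levels in the other mesenchymal barcodes. Cxcl5 stood at 13 CPM in those barcodes, C1qtnf3 at 13.9, Mfap5 at 33.8 and Mkx at 62.3. Postn in the low tier lay above its 510 CPM there.

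Matrix lists went both ways between the tiers. Of 21 collagen genes above the floor, 6 were 2-fold higher and 5 were 2-fold lower in the high tier (median 0.70), and of 6 small leucine-rich proteoglycan genes none was 2-fold higher and 1 was 2-fold lower. Col1a1 had 6263, 11681 and 13787 CPM and Lox 46.3, 172 and 262 CPM; outside the matrix, Lpl had 67.8, 245 and 412 CPM and Bmp3 148, 475 and 648 CPM. Of 15 matricellular genes above the floor, 8 were 2-fold higher and 1 was 2-fold lower in the high than in the low tier (median 1.04), and of 9 contractile genes 6 were 2-fold higher and none 2-fold lower (median 1.05). Of 20 immediate early and stress genes, 8 were 2-fold higher and 1 was 2-fold lower, among them Gadd45g at 131, 613 and 899 CPM, Socs3 at 383, 784 and 1296 CPM and Dusp1 at 447, 847 and 1456 CPM, transcripts that dissociation is known to induce; their part in the tier difference was not tested. Moxd1, limited to 1 UMI by the rule, was present in 10, 32 and 43 cells of the tiers.

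Other genes were lower in the high than in the low tier, among them 5 that were also lower in the Tnmd+ Aspn+ cells than in the other mesenchymal barcodes. Bmp2 had 402, 70.8 and 27.9 CPM, beside 392 CPM in the other mesenchymal barcodes. Col9a1 had 159.6, 32.6 and 9.89 CPM, beside 158, and Sox9, the transcription factor gene of cartilage and other skeletal progenitors, 141, 50.5 and 8.99 CPM, beside 178. Bambi had 504, 168 and 56.6 CPM, beside 477, and Dlx3, a homeobox gene, 94.3, 26.9 and 6.29 CPM, beside 113. For these 5 genes the low tier lay closer to the other mesenchymal barcodes than to the high tier. Pcp4, a calmodulin-binding protein gene, had 947, 195 and 75.5 CPM, and Angpt4, an angiopoietin gene, 246, 63.5 and 16.2 CPM. Bglap, at 66.1, 27.7 and 0 CPM, was also at least 2-fold lower in the high tier. Its 80 UMIs in the low tier lay in 3.6% of those cells, with 77 in the highest cell. Of 15 cell cycle genes, 13 were at least 2-fold lower in the high tier, such as Top2a at 142, 60.2 and 63.8 CPM. Over the other mesenchymal barcodes, however, Bglap and 14 of the 15 cell cycle genes stood higher in the Tnmd+ Aspn+ cells. Because the low tier had less of the label's markers and levels of these 5 genes near those of the other barcodes, the cells are named here by their rule. At 3000 UMIs 30.6%, 72.7% and 99.1% of the tiers had a Tnmd UMI.

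**Figure D4:**
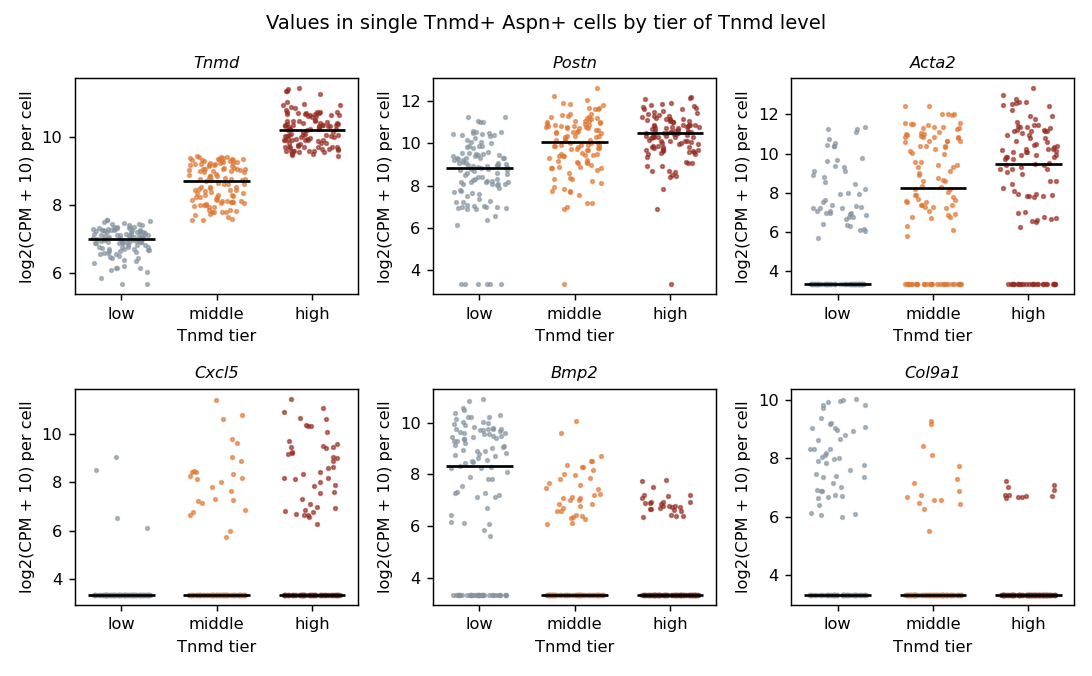
Values of 6 genes in single Tnmd+ Aspn+ cells, as log2(CPM + 10) (vertical axis), in the low, middle and high tier of Tnmd level; each point is a cell, points are spread sideways for view, and lines are medians. Postn and Acta2 lay higher with the tier, while Bmp2 had a UMI in 69.4%, 33.6% and 24.5% of the cells.

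Cxcl5 was restricted to a part of the cells, and those 75 cells (median 10383 UMIs, against 9607.5 in the other 256) differed from the rest in other genes. Of 6694 genes, 159 (2.38%) were at least 2-fold higher and 302 (4.51%) at least 2-fold lower in them (6.89% either way). Cxcl1 had 837 against 257 CPM, or 3.25-fold (95% interval 2.92 to 3.62), and Tnfaip2, a gene induced by tumour necrosis factor, 196 against 33.6 CPM. Lpl had 559 against 141 CPM, Mfap5 319 against 98.6 CPM, Lox 312 against 111 CPM and Matn4, a matrilin gene, 1614 against 532 CPM. Wif1 was lower in the Cxcl5-positive cells, at 311 against 1696 CPM, and so were 13 of 15 cell cycle genes by 2-fold, such as Top2a at 17.3 against 111 CPM. These cells also had more Tnmd, 872 against 486 CPM, so the splits share cells, but they differed for contractile genes, of which 0 of 9 were 2-fold higher by Cxcl5 (median 0.19) and 6 of 9 by Tnmd tier.

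The 59 dividing cells, called by 6 division genes, were deeper (median 13273 UMIs, against 9476 in the other 272). Of 6 chemokine and cytokine genes above the floor, 3 were at least 2-fold lower in them and none higher, and of 8 stromal progenitor genes none was 2-fold apart. Cxcl5 had 24.3 against 152 CPM, Cxcl1 120.1 against 471 CPM, Mfap5 55.8 against 177 CPM and Aspn 716 against 1427 CPM, whereas Mkx had 88.6 against 97.9 CPM. Of 6852 genes, 436 (6.36%) were at least 2-fold higher and 136 (1.98%) at least 2-fold lower in them (8.35% either way). Fewer genes lay 2-fold apart by Cxcl12: between 161 cells with at least 2 Cxcl12 UMIs and 91 with none, 135 of 6654 genes (2.03%) were at least 2-fold higher and 42 (0.631%) at least 2-fold lower in the Cxcl12-positive cells (2.66% either way). The GFP transcript followed Cxcl12, with 657 against 343 CPM, or 1.92-fold (95% interval 1.69 to 2.18). Wif1 had 858 against 2266 CPM and Lef1, a nuclear effector and target of Wnt signalling, 31.4 against 85.4 CPM, while Postn and Mkx stood at 1155 against 1021 CPM and 89.4 against 100.4 CPM. These cells had median depths of 10384 and 9237 UMIs, and their part in the split was not tested.

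The same rule found 123 cells among 5657 kept barcodes at P25 (2.17%, exact binomial 95% interval 1.81 to 2.59), with a median of 12993 UMIs. Age, genotype, sorting gate and library differ together between these sets and cannot be told apart. The first 8 bases of a barcode recurred at the start of some P25 barcode for 1582 of 7528 Cxcl12-GFP P6 barcodes and 1391 of 1691 Cxcl12-creER P6 barcodes; whether the chemistry differed was not tested. In the P6 cells, cell cycle genes, H19, Col9a1 and Col9a3 were higher, and most collagen genes, Postn, Tnn and 10 of 16 bone and cementum genes were lower by at least 2-fold. Of 6916 genes, 1118 (16.2%) were at least 2-fold higher and 701 (10.1%) at least 2-fold lower in the P6 cells (26.3% either way), and the median of all genes was 0.26. Tnmd had 574 against 361 CPM and Aspn 1262 against 3110.3 CPM, but both are rule genes, so these levels were conditioned by the choice at both ages. The given markers outside the rule went both ways. Mkx had 95.8 against 22.7 CPM, whereas Postn had 1136 against 7009.8 CPM.

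All 15 cell cycle genes were at least 2-fold higher in the P6 cells. Top2a had 89.3 against 4.07 CPM and Birc5 68.4 against 1.16 CPM, and Pbk, a mitotic kinase gene, had 56.9 CPM against no UMI at P25, where a count of 0 allows up to 1.74 CPM. At 3000 UMIs, Top2a had a UMI in 9.39% of the P6 cells and in none of the 123 P25 cells, which allows up to 2.44%. H19, an imprinted growth-linked RNA gene, had 819 against 12.8 CPM, and Hhip, a hedgehog inhibitor gene, 139 against 1.74 CPM. Col9a3 and Col9a1 had 102 against 0.581 CPM and 68.7 against 1.16 CPM. Mfap4, a microfibril gene, had 1628 against 197 CPM, and at 3000 UMIs a UMI in 92.1% of the P6 cells, 18.7% of the P25 cells and 27.6% and 2% of the endothelial barcodes of the P6 and P25 libraries.

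The fibre matrix was lower in the P6 cells. Of 27 collagen genes above the floor, 4 were 2-fold higher and 21 2-fold lower (median -1.62): Col1a1 had 10495 against 32748 CPM, Col1a2 5389 against 23440.0 CPM and Col3a1 6354 against 19513 CPM. Postn had 1136 against 7009.8 CPM, or 6.17-fold (95% interval 5.96 to 6.4) lower at P6. Tnn, encoding tenascin-N of the mature ligament, had 10.4 against 1337 CPM and was found in 26 of the 331 P6 cells and 84 of the 123 P25 cells; at 3000 UMIs the shares were 2.42% and 56.1%, with 6% of the P25 endothelial barcodes. Scx had 0.563 against 123 CPM, with 2 UMIs in 2 P6 cells and 212 in 40 P25 cells, 5 of which held 50.5%. At 3000 UMIs no Scx UMI was left in 330 P6 cells, which allows a share of up to 0.909%, against 12.2% of the P25 cells and 1% of the P25 endothelial barcodes. Thbs4 stood at 194 against 1529.6 CPM, and S100a4, a gene of mature fibroblasts, at 13.8 against 495 CPM.

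Mineral genes were lower in the P6 cells, and at P25 their UMIs were unevenly spread over the cells. Ibsp had 14.1 against 2498 CPM, and 5 of 123 P25 cells held 49.5% of its UMIs. Bglap had 32.1 against 2997 CPM, with 78.2% in 5 P25 cells, and Spp1 3.66 against 883 CPM, with 82.2%. Spp1 had a UMI at 3000 UMIs in 1.21% of the P6 cells, 31.7% of the P25 cells and 26% of the P25 endothelial barcodes. At 3000 UMIs Bglap had a UMI in 2.42% of the P6 cells, 56.9% of the P25 cells and 44% of the P25 endothelial barcodes, beside which the share in the P25 cells is to be read. Mgp had 36.3 against 2494 CPM, with a UMI at that depth in 2.42% of the P6 cells, 45.5% of the P25 cells and 30 of 100 P25 endothelial barcodes (median depth 12494 UMIs). Mstn, encoding the muscle growth inhibitor myostatin, had no UMI in the P6 cells, which allows up to 0.845 CPM, against 176 CPM at P25, all of it in 5 cells. Cilp, a cartilage matrix gene, likewise had none at P6, against 65.7 CPM in 10 P25 cells.

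**Figure D5:**
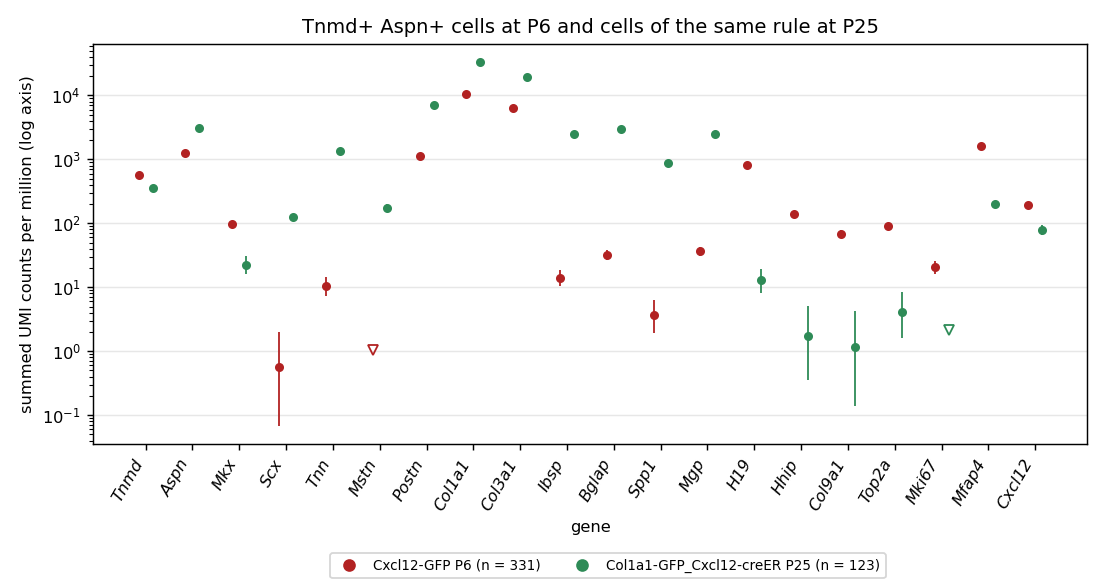
Summed CPM (log axis) of chosen genes in the 331 Tnmd+ Aspn+ cells of Cxcl12-GFP P6 and the 123 cells of the same rule at P25; bars are exact Poisson 95% intervals for counting error, and open triangles mark the upper bound where no UMI was found. Tnn stood at 10.4 CPM in the P6 cells and 1337 CPM in the P25 cells, while Mfap4 stood at 1628 and 197 CPM.

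Cxcl12 itself was higher in the P6 cells than in the P25 cells, at 192 against 79 CPM, or 2.43-fold (95% interval 2.02 to 2.94), while sorting was by Cxcl12-GFP at P6 and by Col1a1-GFP or tdTomato at P25. Contractile genes above the floor numbered 10, with 4 at least 2-fold higher and 1 at least 2-fold lower in the P6 cells; Acta2 had 938 against 712 CPM. Cxcl5 had 123 against 92.4 CPM, found in 75 P6 cells and 11 P25 cells, 5 of which held 93.1% of the P25 UMIs. The rule's Mmp13 limit weighed differently on the ages, since 793 of 7517 kept P6 barcodes and 2144 of 5657 kept P25 barcodes fell in the Mmp13-positive set. Without that limit at either age, 1587 genes in place of 1819 were 2-fold apart.

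In the Cxcl12-creER P6 library, which is of the same age, the rule found 8 cells among 1131 kept barcodes (0.707%, exact binomial 95% interval 0.306 to 1.39), too few to give levels. Together they held 91470 UMIs, with 293 of Tnmd, 138 of Aspn, 335 of Postn, 8 of Mkx and 61 of Cxcl12. No UMI of Cxcl5 or Acta2 was found among them. The kept barcodes of that library had a median of 1470 UMIs, against 8307 in Cxcl12-GFP P6, and a count limit of 1 or 2 UMIs is harder to meet at the lower depth, so the difference in share between the libraries was not read as a difference in abundance.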

How the data were processed

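Single-cell 3′ RNA libraries of 3 samples were analysed, 1 per group. The deposited matrices hold raw UMI counts per gene and barcode; the authors used Cell Ranger, Seurat and build mm10, per the submitters' processing notes, and Cell Ranger 6.0.0 (Cxcl12-creER P6) and 3.1.0 (P25), per the file headers. No version for Cxcl12-GFP P6 and no barcode filter is stated. Barcodes under 500 genes or over 15% mitochondrial UMIs were left out, which kept 7517 of 7528, 1131 of 1691 and 5657 of 6693, with median depths of 8307, 1470 and 15089 UMIs for Cxcl12-GFP P6, Cxcl12-creER P6 and P25.

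Counts were summed over cells and divided by their total (CPM). Ratios are log2(CPM + 1), first-named set over the second, for genes with at least 20 CPM on the higher side; "at least 2-fold" is a size, not a test. The pseudocount understates ratios of low genes. The share of all genes higher or lower by any amount was not counted. Such counts in a list therefore have only the median log2 ratio of all genes beside them. It was -0.03 over the other mesenchymal, 0.02 over the Moxd1-positive and 0.02 over the Mmp13-positive barcodes. Intervals are exact (Poisson, Clopper-Pearson or conditional binomial, 95%) and cover counting error only; the limit of a count of 0 is instead 3 counts over the total, which lies below the exact 95% bound. Shares at 3000 UMIs come from 1 random draw of UMIs, and those set beside P25 from a second. Named genes were those of the rule, the given markers, Cxcl12 and the reporters, the 15 highest and 15 lowest (8 and 8 in other comparisons) with at least 50 CPM and 50 UMIs, and list members with the largest ratios or at least 100 CPM. A few genes that this rule named are not reported here. Single genes given to show a spread over cells were chosen after their values were seen. The members and gene lists were chosen with earlier results of these data known. No doublets were removed in the values given; leaving out the 452 highest doublet scores (6.01% of barcodes) took 23 of the 331 cells. Scripts were tested on simulated data. Intervals used scipy 1.17.1, tables pandas 2.3.3 and numpy 2.4.6, doublet scores scikit-learn 1.9.0 and figures matplotlib 3.10.9, under Python 3.11.15.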

Additional observations from a re-analysis of the deposited data

Results flagged for a closer look

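The tdTomato reporter transcript was found in the Cxcl12-GFP P6 library, whose genotype label names no tdTomato. It had 85 UMIs in 66 of the 331 Tnmd+ Aspn+ cells (19.9%), against 1633 UMIs in 1371 of all 7517 kept barcodes (18.2%), above the limit of 3 counts. It was singled out because the reporter lies outside the main measurement and was counted above that limit. Its source was not tested.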

How the results depend on the processing

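No paired analysis was possible because each group is 1 library. Of 51 alternative values for the counts of 2-fold genes and of cells, 31 stayed within 1.5 times the value reported. Over the other mesenchymal barcodes 229 genes were 2-fold apart; the count was 436 with at least 2 Tnmd UMIs, 71 with at least 1 Aspn UMI, 131 with a pseudocount of 10 CPM, 128 at a floor of 50 CPM, 600 with no floor, 555 against barcodes with no Tnmd and under 2 Aspn UMIs, and 500 without the low Tnmd tier. Over the Moxd1-positive barcodes (152) the first 4 of these settings gave 98, 247, 92 and 83, and no floor gave 518. Over the Mmp13-positive barcodes (110) the pseudocount gave 69, the 50 CPM floor 54, no floor 467 and leaving out the low tier 190. Over the P25 cells (1819) the pseudocount gave 1186, the 50 CPM floor 939 and no floor 4185. At least 1 Aspn UMI gave 505 cells in place of 331. Leaving out the low tier, and dropping the Mmp13 limit at both ages, were chosen after seeing the data.

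Among single genes 4 of 1341 alternative log2 ratios turned round from a reported ratio of at least 2-fold. Turns of smaller reported ratios or medians were not counted. In the middle range of depth (10th to 90th percentile) Amelx stood at 0.29 over the other mesenchymal barcodes and at 0.42 over the Mmp13-positive barcodes, where Clu stood at 0.27 and the epithelial list's median at 0.28. Moxd1, a rule gene, stood at 0.38 against the barcodes with no Tnmd. The glial median was -0.53 with no floor, and the osteoblast marker median over the Moxd1-positive barcodes was -0.79 with at least 2 Tnmd UMIs and -0.78 at the 50 CPM floor. The cause of each was not tested. Thinning moved 110 of 112 shares of cells with a UMI by more than their interval. At 331 cells a count of 0 still allows 0.845 CPM.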
